A study of Mus musculus with 8 samples.

Results

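The comparison described here is between fibroblasts carrying the EA form of STAT5 and fibroblasts carrying the YF form, before any hormone was given. It rests on 4 of the 8 arrays of the series, 2 of EA cells and 2 of YF cells, and on all 45037 probe sets that remained after control probe sets were removed. The cells were C57BL/6 mouse embryonic fibroblasts that lacked Stat5 in every group, and a STAT5 mutant had been put back with a retrovirus. According to the labels, EA carries an exchange of EE for AA in the binding domain of STAT5 and YF carries Y694F. The arrays without stimulation were EA and YF, and the remaining 4 arrays were the same mutants after 120 minutes of growth hormone. The latter enter no difference between EA and YF given below unless hormone is named, but they share in the estimate of spread behind each SE and p-value. The labels name no promoter for the vector and do not say whether the 2 arrays of a group came from separate infections, although the design text calls them biological duplicates. The p-values therefore measure the spread between these arrays, and the mutant cannot be told apart from any other difference between the 2 infected cell populations. Cells with normal STAT5 and cells without virus are not analysed here.

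STAT5 is a latent transcription factor. After growth hormone binds its receptor, the kinase JAK2 phosphorylates STAT5 on a tyrosine, and paired STAT5 molecules bind DNA at palindromic sites and switch on genes such as Socs2, Cish and Igf1. Without hormone the pathway is largely idle, and fibroblasts are instead set apart from each other by genes that record where in the body they arose (Hox, T-box and Pax factors), by the matrix they secrete and by the growth factors they make.

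Values are log2 expression per probe set as deposited, so a difference of 1 is a doubling. A difference is EA minus YF, SE is its moderated standard error, and passing means a limma p-value under 0.05 after Benjamini-Hochberg adjustment over all 45037 probe sets. Averaged over the 8 arrays, 24773 probe sets (55%) lay below 4. This dense low group has no known scale, so the size of a difference with a side below 4 is uncertain. Replicates correlated at 0.998 in both groups over probe sets, and an EA array against a YF array at 0.986. On the first principal component, which held 69.9% of the variance, the 4 EA arrays of the series lay between -66.4 and -61.4 and the 4 YF arrays between 62.4 and 64.9.

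EA and YF cells differed at 4847 probe sets, or 10.8% of those tested, of which 2483 (5.51%) were higher and 2364 (5.25%) lower in EA. At an unadjusted p under 0.05 there were 9549. When the spread was taken from the 4 unstimulated arrays alone, 4194 passed, and 3189 of the 4847 were among them. In every one of the 4847 both EA arrays lay on the same side of both YF arrays. Probe sets that did not pass could be separated in this way too, such as that of Nog (1.87 and 1.86 in EA, 1.89 and 1.88 in YF). The share of all probe sets so separated was not counted, and the separation is no further support for a difference. The median size of a passing difference was 0.94 (quartiles 0.59 and 1.63), 2271 exceeded 1, and 382 exceeded 3. The largest differences were more often on the lower side: 100 probe sets were higher by more than 3 and 282 were lower by more than 3. Passing probe sets named 1906 genes higher and 1601 lower in EA, with 28 genes counted in both because their probe sets disagreed. Of 700 genes with 2 or more passing probe sets, 672 had them all in the same direction. The number passing depended on each array, being 2535 without EA replicate 1, 2707 without EA replicate 2, 2603 without YF replicate 1 and 2488 without YF replicate 2.

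**Figure D1:**
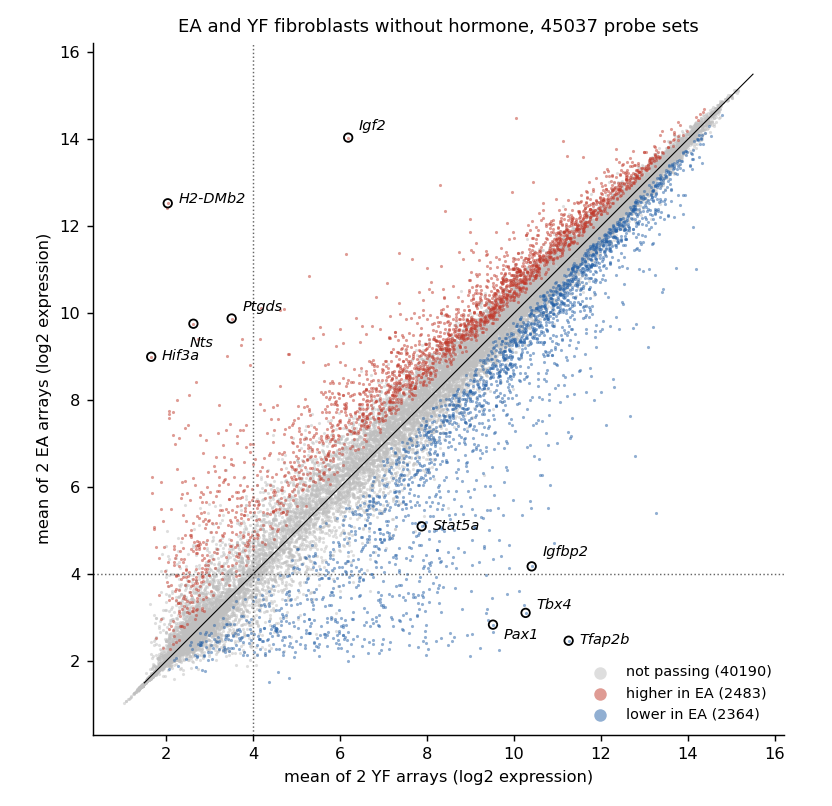
Mean of the 2 EA arrays (vertical axis, log2 expression) against the mean of the 2 YF arrays (horizontal axis, log2 expression) for 45037 probe sets, coloured by the limma call, with dotted lines at 4. The circled genes lie far from the diagonal, such as H2-DMb2 at 12.53 against 2.04 and Tfap2b at 2.47 against 11.26.

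The gene highest in EA relative to YF was H2-DMb2, part of the chaperone that loads peptides onto MHC class II molecules. Its values were 12.83 and 12.24 on the EA arrays and 2.05 and 2.04 on the YF arrays, so that EA exceeded YF by 10.49 (SE 0.20, adjusted p = 5.3e-05). A second probe set differed by 10.39 and the third lay in the low group in both (2.06 and 2.09). Its neighbour H2-DMb1 is a close copy, so the split of signal between the 2 genes is uncertain. H2-DMa, the partner chain, stood at 9.87 and 10.27 in EA and at 4.61 and 4.63 in YF (difference 5.45, SE 0.34, adjusted p = 0.0013). Both chains of the chaperone were thus far above YF on each EA array. The class II genes H2-Aa, H2-Ab1 and H2-Eb1, on whose products it acts, and their activator Ciita had means below 4 in both kinds of cell (all 4 named after their values were seen).

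Igf2, the fetal insulin-like growth factor, was next. It measured 14.02 and 14.07 in EA, among the brightest signals on the arrays, and 5.86 and 6.52 in YF, which is 7.86 higher (SE 0.22, adjusted p = 0.00013), or 232-fold. The second Igf2 probe set differed by 5.73. Hif3a, a hypoxia-inducible factor subunit, was at 9.10 and 8.90 in EA and in the low group in YF (1.67 and 1.66; difference 7.34, SE 0.12), but 4 of its 6 probe sets were low in all arrays. Nts, the precursor of the peptide neurotensin, was at 9.96 and 9.56 in EA against 2.32 and 2.94 in YF (difference 7.13, SE 0.27). The rest of the 15 genes with the largest higher values ran from 5.54 to 6.37. They were Ptgds (prostaglandin D2 synthase), Krt19 (a simple-epithelial keratin), Msln (mesothelin, a mesothelial surface protein), Htra3 (a secreted serine protease), Col15a1 (a basement membrane collagen), Efhd1 (a mitochondrial calcium-binding protein), Il11 (an IL-6 family cytokine), Tnnt3 (fast skeletal troponin T), Gdpd2 (a glycerophosphodiester phosphodiesterase), Hhatl and Crabp1 (a cellular retinoic acid-binding protein). Of all 15, Igf2, Krt19 and Gdpd2 had YF means above 4, and the size of the other 12 differences is therefore uncertain.

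On the other side, Tfap2b, the AP-2 beta factor of neural crest and limb mesenchyme, had the largest difference. It was at 11.21 and 11.32 on the YF arrays and at 2.50 and 2.44 on the EA arrays, a difference of -8.80 (SE 0.07, adjusted p = 9e-06), and its second probe set gave -6.87. Tbx4, the T-box factor of the hindlimb and lung mesenchyme, was at 10.21 and 10.33 in YF and at 3.40 and 2.82 in EA (difference -7.16, SE 0.20, adjusted p = 0.00013), while a second probe set was low in both. Pax1, a factor of sclerotome and limb girdle, gave 9.58 and 9.47 in YF against 3.01 and 2.68 in EA (difference -6.68, SE 0.26). These 3 developmental factors were thus well above the low group in YF and inside it in EA.

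The other 12 of the 15 largest lower genes ranged from -7.87 to -6.24. They included Hoxb5os, an opposite-strand transcript at Hoxb5 (-7.40), and Hoxc4 (-6.30). Surface and channel genes among them were the protocadherin Pcdh17 (-6.42), the calcium channel subunit Cacna1d (-6.33), the solute carrier Slc22a23 (-6.51) and Ildr2 (-6.96). Also there were Epb41l4a, a membrane-cytoskeleton protein (-6.92), Plac8 (-6.88), the choline dehydrogenase Chdh (-6.45), and the secreted C1qtnf3 (-6.26) and Igfbp2 (-6.24). Glipr1 gave -7.87 on one probe set, from 13.22 and 13.30 in YF to 5.12 and 5.67 in EA, but its brightest probe set had means of 10.88 and 10.87 and a difference of 0.01. Of the 15, Glipr1 and Igfbp2 had EA means above 4.

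The cells carried a fibroblast profile in both groups. All 11 fibroblast markers examined were above 4 in EA or YF, and 9 of them, including the collagen genes Col1a1, Col1a2 and Col3a1, the filament gene Vim, Fn1 (fibronectin) and the growth factor receptors Pdgfra and Pdgfrb (both receptors named after their values were seen), did not pass on their brightest probe set. Col1a2 was at 14.61 and 14.65 in EA and at 14.53 and 14.57 in YF (difference 0.08, SE 0.06, adjusted p = 0.60). The 2 that passed were Thy1, a surface glycoprotein used to sort fibroblasts (7.49 and 7.79 in EA, 12.71 and 12.64 in YF; difference -5.03, SE 0.13, adjusted p = 9.8e-05), and the proteoglycan Dcn (3.78 and 3.71 against 7.24 and 7.59; difference -3.67, SE 0.29). In bulk RNA, fewer cells of a kind and less RNA per cell cannot be told apart.

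Groups of genes are described next by 1 probe set per gene, the brightest. Over all 18193 named genes, 15% passed, 8.28% higher and 6.74% lower in EA, with a median difference of -0.01, and these shares are the background for each list. Over the 50 lists, 394 of 1144 measured genes passed, against 262 without YF replicate 1 and 257 without YF replicate 2. The lists hold many genes well above the low group, where passing is more common. Among genes with a mean of 4 or more, 23.6% passed, 13.1% higher and 10.5% lower in EA. The lists were also chosen with earlier results of these data known. A list share above the background is therefore a description and not an independent comparison.

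**Figure D2:**
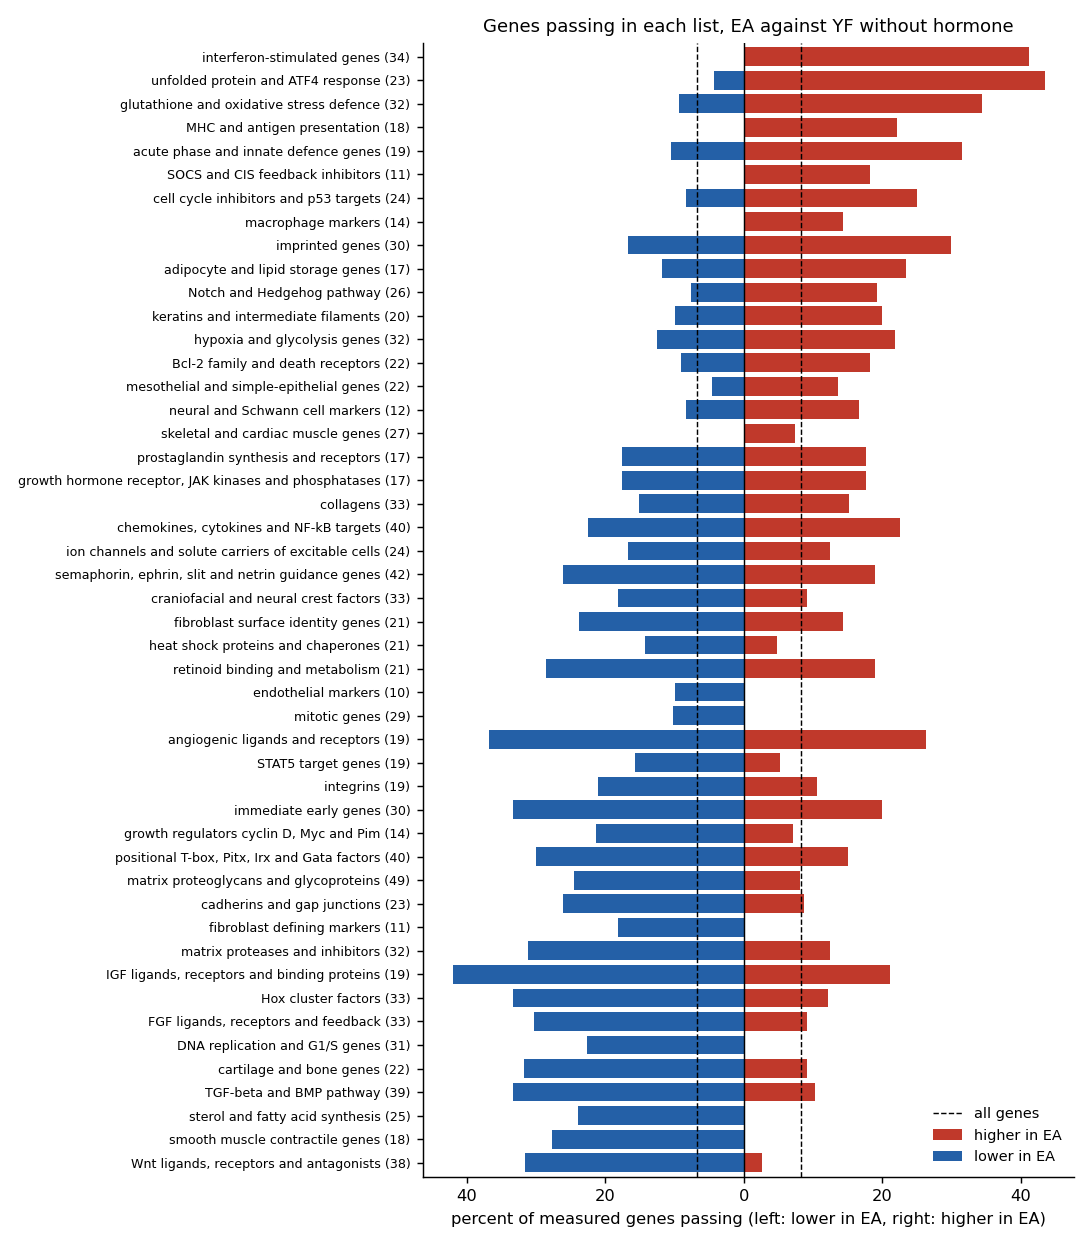
Percent of the measured genes of each list (number measured in parentheses) that passed higher in EA (right, red) or lower in EA (left, blue), for lists with at least 10 measured genes. Dashed lines mark all named genes, 8.28% higher and 6.74% lower; 41.2% of the interferon-stimulated genes passed higher and 42.1% of the IGF genes passed lower.

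Among Hox genes, whose clusters are switched on in order along the body and limb axes, 11 of 33 measured were lower in EA and 4 were higher, with a median difference of -0.15. The lower ones were led by Hoxc4, Hoxc5 and genes of the Hoxb cluster. Hoxc4 was at 9.92 and 9.76 in YF and at 3.55 and 3.52 in EA (difference -6.30, SE 0.18, adjusted p = 0.00013). Hoxc5 was at 3.83 and 5.61 in EA, against a mean of 10.93 in YF (-6.21, SE 0.56). Neighbours in the Hoxb cluster, Hoxb3, Hoxb4, Hoxb5 and Hoxb6, were between 7.88 and 9.24 on the YF arrays and between 2.11 and 4.73 on the EA arrays, with differences of -4.91, -5.44, -6.10 and -5.39. Hoxb9 (-4.72) and Hoxc8 (-4.18), named after their values were seen, were lower too. Posterior genes of the Hoxa and Hoxd clusters, likewise named after their values were seen, were bright in both: Hoxd13 was at 13.24 and 13.12 in EA and at 13.46 and 13.47 in YF (-0.28, SE 0.05, adjusted p = 0.031). The 4 that were higher in EA were Hoxa11 (1.38), Hoxd9 (1.05), Hoxa9 (0.73) and Hoxd8 (0.38). Without EA replicate 1, as without YF replicate 2, 2 of these 4 remained, and 8 to 11 lower genes passed when any 1 of the 4 arrays was left out.

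**Figure D3:**
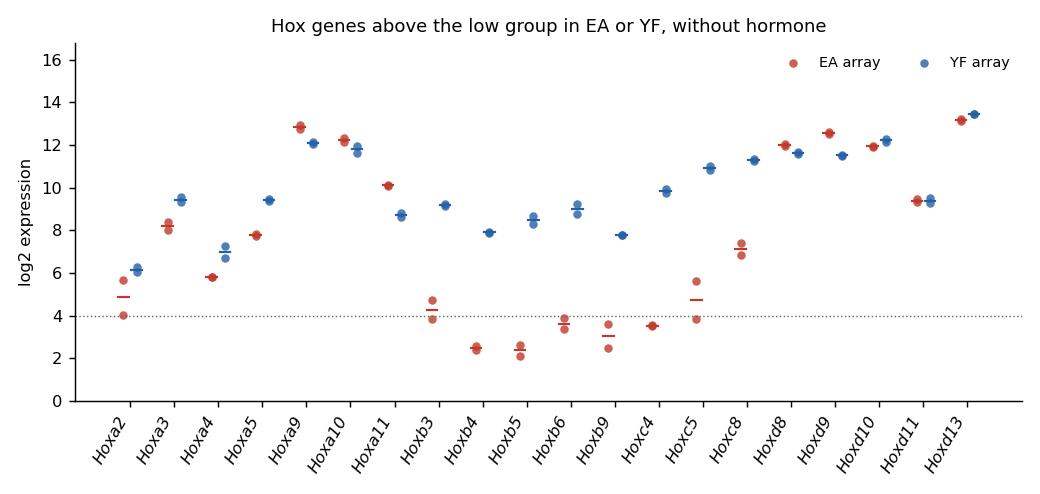
Log2 expression (vertical axis) of the 20 Hox genes with an EA or YF mean above 4, with 1 point per array and a bar at the mean of 2 arrays; the dotted line is at 4. Hoxb3 to Hoxb9 and Hoxc4 to Hoxc8 are separated by 4.18 to 6.30, while genes of the Hoxa9 to Hoxa11 and Hoxd8 to Hoxd13 range differ by at most 1.38.

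Other factors that mark position in the embryo also split. Of 40 measured T-box, Irx, Gata, Meis, Lhx and related factors, 12 were lower and 6 higher in EA (median -0.04). Besides Tbx4, the large lower ones were Wt1, a factor of mesothelium and kidney (8.4 and 8.02 in YF, 2.48 and 2.44 in EA; -5.75, SE 0.27), Irx2 (-4.80, SE 0.15), the limb and heart factor Shox2 (-4.27, SE 0.34), Tbx20 (-4.09, SE 0.32) and the limb factor Lhx2 (-3.90, SE 0.08, adjusted p = 5.3e-05). The EA side of each was in the low group. The genes higher in EA, named after their values were seen, moved by less: Tbx18 was at 11.77 and 11.66 in EA and at 9.89 and 9.86 in YF (1.83, SE 0.18), and Tbx5, the forelimb factor, at 5.41 and 5.64 against 4.07 and 3.57 (1.70, SE 0.34). Of the 6, 3 passed without EA replicate 2, YF replicate 1 or either YF array with hormone. Of 33 craniofacial and neural crest factors, 6 were lower and 3 higher. Beside Tfap2b and Pax1 the lower ones included Foxf1 (-3.22, SE 0.40), whose close relative Foxf2 was higher (2.13, SE 0.15), and Msx1 (-2.17, SE 0.09). The bright mesenchymal factors Prrx1 (0.06) and Snai2 (0.27) did not pass. Without EA replicate 2 the 6 were 3, and the 3 higher ones were 1 without any 1 of the 4 arrays and 5 without either YF array with hormone.

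Secreted signals showed a similar tilt to the lower side. In the Wnt pathway, 12 of 38 measured genes were lower in EA and 1 was higher (median -0.01). Without YF replicate 2 the 12 were 6, and the 1 was 2 without EA replicate 1 and 0 without YF replicate 1 or YF replicate 2. Sfrp1, a secreted Wnt antagonist, was at 12.12 and 12.12 in YF and at 7.33 and 7.54 in EA (difference -4.69, SE 0.08, adjusted p = 3.3e-05), and 4 of its 5 probe sets passed lower. Wnt5b, a ligand of the non-canonical branch, was at 9.38 and 9.39 in YF and at 6.25 and 4.69 in EA (-3.91, SE 0.50), and its relative Wnt5a differed by -1.68 (SE 0.21). The intracellular inhibitor Nkd2 gave -3.17, and the receptors Fzd3 and Fzd4 gave -2.70 and -1.64. The lower genes thus included ligands, receptors and antagonists.

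In the TGF-beta and BMP pathway 13 of 39 were lower and 4 higher (median -0.13). The ligand Bmp2 was at 9.02 and 9.07 in YF and at 4.46 and 3.95 in EA (-4.84, SE 0.26, adjusted p = 0.00087). The Id genes, direct targets of BMP signalling that encode inhibitors of helix-loop-helix factors, were lower where they passed: Id4 gave -4.10 (SE 0.58), and Id2 and Id3, added after their values were seen, gave -2.08 and -1.73. Of the inhibitors, Bambi (-2.56, SE 0.26), Bmper (-2.56, SE 0.07) and the activin inhibitor Fst (-2.50, SE 0.19) were lower, while Grem1, a bright BMP antagonist named after its values were seen, did not pass (10.68 and 10.76 in EA, 10.78 and 10.76 in YF; -0.05, SE 0.20, adjusted p = 0.95), nor did the inhibitory Smad6 (-0.51) and Smad7 (-0.48), which were also named after their values were seen. The BMP antagonist Chrd was instead higher (2.39, SE 0.23; named after its values were seen), the YF mean being below 4. Without EA replicate 1, YF replicate 1 or YF replicate 2 the 13 lower genes became 7, and without either YF array with hormone the 4 higher ones became 7.

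Fibroblast growth factors and their feedback inhibitors followed, with 10 of 33 lower and 3 higher (median -0.06). Dusp4, a phosphatase that switches off MAP kinases, was at 6.74 and 7.16 in YF and at 2.36 and 2.14 in EA (-4.70, SE 0.15, adjusted p = 0.00019), and Dusp6, of the same family, differed by -1.82 (SE 0.29). Fgf13 gave -3.50, the receptor Fgfr3 -2.20 and the ligand Fgf5 -1.69. Hgf, a ligand for the receptor Met, was higher in EA (5.33 and 4.33 against 2.24 and 2.48; 2.47, SE 0.42). The 10 lower genes were 5 without YF replicate 1 and 6 without YF replicate 2, and the 3 higher ones were 1 without EA replicate 1.

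The insulin-like growth factor system held the largest share of lower genes of any list, 8 of 19 (42.1%), beside 4 higher (median -0.05). The 2 ligands were opposed. Igf1 was at 9.55 and 9.49 in YF and at 3.68 and 5.05 in EA (-5.16, SE 0.44, adjusted p = 0.0032), with all 4 probe sets lower, whereas Igf2 was 7.86 higher in EA. Of the binding proteins, which hold the ligands outside the cell, Igfbp2 was at 10.54 and 10.29 in YF and at 3.56 and 4.79 in EA (-6.24, SE 0.43), Igfbp6 differed by -3.66 (SE 0.44) and Igfbp3 by -2.69 (SE 0.29). The protease Pappa, which frees IGF from binding proteins, was lower by 3 of 3 probe sets (-2.83, SE 0.32), and its relative Pappa2 was higher (2.60, SE 0.34), so these paralogs were opposed too. The receptors differed less, with -0.63 for Igf1r and 0.43 for Igf2r; Pappa2 and the receptors were named after their values were seen. The count of 8 was the same with any 1 of the 4 arrays left out, and without EA replicate 1 the 4 higher ones were 2.

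**Figure D4:**
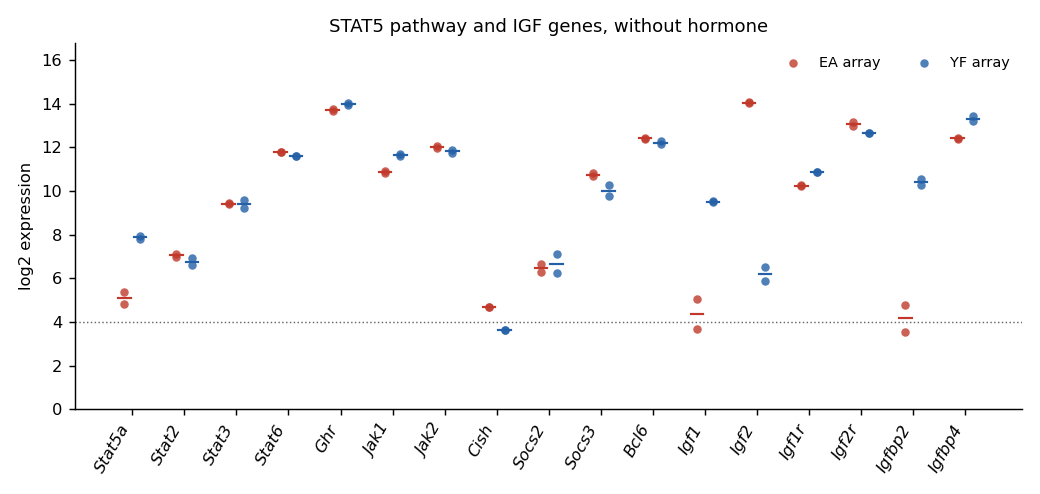
Log2 expression (vertical axis) of genes of the STAT5 pathway and the IGF system without hormone, with 1 point per array, a bar at the mean of 2 arrays and a dotted line at 4. Stat5a, Igf1 and Igfbp2 are lower and Igf2 is higher on both EA arrays. On the brightest probe set of each, the EA and YF means of Ghr, Jak2, Stat3 and Stat6 differ by at most 0.27.

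Among the STAT genes, Stat5a passed, 1 of 6 measured. Its brighter probe set was at 4.83 and 5.36 in EA and at 7.95 and 7.82 in YF (-2.79, SE 0.32, adjusted p = 0.0071). The other Stat5a probe set and both of Stat5b were in the low group everywhere. Whether the probes detect the remaining native transcript or the one from the virus is not known here, so this value checks neither the deletion nor the vector. Ghr, the hormone receptor, was at 13.75 and 13.67 in EA and at 13.95 and 14.02 in YF (-0.27, SE 0.04, adjusted p = 0.02), and its kinase Jak2 at 11.97 and 12.07 against 11.76 and 11.90 (0.19, SE 0.07, adjusted p = 0.16). Dimmer Ghr probe sets differed by -0.27 and -0.79 and did not pass. Jak1, which serves interferon and IL-6 family receptors, was lower (-0.76, SE 0.10), and the receptor chains of the IL-6 family were split, Il6st and Osmr being higher (0.38 and 0.67) and Lifr lower (-0.54). In this list of 17 receptors, kinases and phosphatases 3 were higher and 3 lower. The 3 higher were 2 with quantile normalization, and no alternative gave more than 2. Neither set held when EA replicate 1 was left out (0 and 0), and the counts were 1 and 1 without EA replicate 2, 1 and 0 without YF replicate 1 and 2 and 1 without YF replicate 2.

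Known targets of STAT5, most of them genes it switches on, did not share a direction before hormone. Of 19 measured, 1 was higher and 3 were lower in EA (5.26% and 15.8%, median -0.01). Dimmer probe sets of Ccnd2 (2 of 7), Bcl2l11 (2 of 5), Ccnd1 (1 of 3) and Bcl2l1 (1 of 4) passed higher. These 4 genes were named after their values were seen, and no target beyond the 3 had a probe set passing lower. Cish, a feedback inhibitor, was at 4.69 and 4.67 in EA and at 3.65 and 3.63 in YF (1.04, SE 0.21, adjusted p = 0.04), the YF mean being below 4. Socs2, the principal feedback inhibitor of growth hormone, overlapped between the groups, at 6.29 and 6.64 in EA and 7.10 and 6.25 in YF (-0.21, SE 0.34, adjusted p = 0.90), and without YF replicate 1 the difference was 0.21. Bcl6, a repressor gene that STAT5 is known to lower, was at 12.45 and 12.38 against 12.28 and 12.15 (0.20, SE 0.07, adjusted p = 0.15). The lower ones were Igf1, the kinase gene Pim1 (9.95 and 10.12 in EA, 10.98 and 11.29 in YF; -1.10, SE 0.12) and Nox4, a NADPH oxidase (-1.38, SE 0.20). The 1 higher was 0 without EA replicate 1, EA replicate 2, YF replicate 1 or either EA array with hormone, and 2 without either YF array with hormone. In the SOCS family and its relatives, 2 of 11 were higher, Cish and the adaptor Sh2b3 (0.74, SE 0.11). They were 0 of 11 without EA replicate 1, EA replicate 2 or YF replicate 1, and 1 without YF replicate 2 or either EA array with hormone.

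Interferon-stimulated genes are switched on after interferon, and many make antiviral proteins. Of 34 measured, 14 were higher in EA (41.2%, against 8.28% of all genes) and 0 were lower by limma (0 also at an unadjusted p under 0.05), with a median difference of 0.64. Usp18, a brake on interferon receptors, was at 7.60 and 6.77 in EA and at 2.65 and 2.91 in YF (4.41, SE 0.41, adjusted p = 0.0039). Ifit1, which binds viral RNA, was at 10.04 and 9.75 against 6.49 and 6.23 (3.54, SE 0.40). Bst2, or tetherin, which holds budding virus at the membrane, was at 9.30 and 9.34 against 6.15 and 5.99 (3.25, SE 0.27). Igtp, an immunity-related GTPase, differed by 2.55 (SE 0.26), the exonuclease gene Isg20 by 2.40 (SE 0.19) and Xaf1 by 2.40 (SE 0.21). Each of these 6 was higher on both EA arrays. Of the brightest members that did not pass, the largest difference was that of Ifi35 (14.21 and 13.96 in EA, 13.65 and 13.76 in YF; 0.38, SE 0.14, adjusted p = 0.21). Between 10 and 14 passed with any 1 of the 4 arrays left out.

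The DNA before 3 of these genes and before H2-DMb2 is shown because their windows hold a STAT motif. That motif was absent from the searched windows of other leading genes, namely Tfap2b, Tbx4, Pax1, Hoxc4, Igf2, Hif3a and Nts. It was also absent from those of the STAT5 targets Cish and Igf1. Windows with an interferon-response motif alone are not shown, such as those of Ifit1 and Ifit3 (2 matches each, Ifit3 being named for this). The following are the 250 bases before the annotated start in RefSeq (GRCm38.p6), 5′ to 3′ on the strand of the gene, with matches in capitals to TTCNNNGAA, the palindrome that STAT dimers bind, or to GAAANNGAAA, the core of the interferon-response element; both strands were searched. Bst2 and Igtp have matches to both, and in Bst2 they overlap. Isg20 is shown for the 1 of its 3 annotated starts with a match, and H2-DMb2 as the gene with the largest difference.
Bst2, chr8:71537473-71537722, minus strand: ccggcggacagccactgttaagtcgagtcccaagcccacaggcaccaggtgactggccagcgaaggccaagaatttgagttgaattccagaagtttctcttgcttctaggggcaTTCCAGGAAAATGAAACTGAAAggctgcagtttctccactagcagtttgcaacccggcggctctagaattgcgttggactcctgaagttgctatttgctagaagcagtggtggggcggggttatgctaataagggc
Igtp, chr11:58199306-58199555, plus strand: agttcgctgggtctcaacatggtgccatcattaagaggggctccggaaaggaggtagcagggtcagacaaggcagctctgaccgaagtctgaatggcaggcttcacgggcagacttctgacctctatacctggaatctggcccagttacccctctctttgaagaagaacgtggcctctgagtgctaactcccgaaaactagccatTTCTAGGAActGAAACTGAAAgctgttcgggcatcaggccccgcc
Isg20, chr7:78913174-78913423, plus strand: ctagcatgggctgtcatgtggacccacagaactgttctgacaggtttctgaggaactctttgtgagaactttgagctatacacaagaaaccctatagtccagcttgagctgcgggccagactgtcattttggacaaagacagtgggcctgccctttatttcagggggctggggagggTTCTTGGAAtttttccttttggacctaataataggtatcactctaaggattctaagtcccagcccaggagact
H2-DMb2, chr17:34144999-34145248, plus strand: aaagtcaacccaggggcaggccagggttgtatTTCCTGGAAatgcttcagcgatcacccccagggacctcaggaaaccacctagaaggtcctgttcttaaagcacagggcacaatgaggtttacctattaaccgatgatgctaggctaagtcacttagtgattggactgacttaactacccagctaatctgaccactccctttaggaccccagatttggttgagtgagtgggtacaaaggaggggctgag

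Over the 18109 windows of measured genes, TTCNNNGAA stood in 6.21% and GAAANNGAAA in 2.61%. For genes higher in EA the shares were 5.23% and 3.32% of 1626 windows, and for genes lower in EA 5.62% and 2.53% of 1263. Windows were at hand for 26 of the 34 interferon-stimulated genes, of which 11 were higher in EA. GAAANNGAAA was found for 13 of the 26 genes, 5 of them among the 11. TTCNNNGAA was found for 6 (Bst2, Ifit2, Igtp, Irf1, Isg20 and Oas1a), each of them among the 11 higher in EA; Ifit2, Irf1 and Oas1a are named for this match. For Xaf1, and for Ifitm3 and Irf9 (named for this), all higher in EA, neither motif was found. These counts are per gene, and a gene with several windows has more chances of a match. By window, TTCNNNGAA stood in 18.2% and GAAANNGAAA in 39.4% of the 33 windows of the 26 genes. Of the 16 windows of the 11 genes the shares were 37.5% and 31.2%. A match is a description of these letters and not evidence of binding.

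Of 18 measured MHC and antigen presentation genes, 4 were higher and 0 lower in EA by limma (0 lower also at an unadjusted p under 0.05). Besides H2-DMa they were the immunoproteasome subunits Psmb9 (1.38, SE 0.12) and Psmb10 (0.77, SE 0.17) and the peptide-loading factor Tapbp (0.20, SE 0.04). The 4 were 2 with any 1 of the 4 arrays left out, and 1 was lower without YF replicate 1. H2-D1 (-0.26) and B2m (0.03), the parts of MHC class I, did not pass, nor did the peptide transporter Tap1 (1.09, SE 0.29, adjusted p = 0.087). Of 14 macrophage markers 2 were higher, the lysosomal Cd68 (11.28 and 11.19 in EA, 7.57 and 7.75 in YF; 3.58, SE 0.21) and the mannose receptor Mrc1 (2.97, SE 0.34). The summed linear level of the 14 was 2810 to 2850 in EA and 566 to 672 in YF, and without Cd68 it was 362 to 474 and 377 to 458, ranges that overlap. The defining genes Ptprc, Itgam, Adgre1, Tyrobp and Aif1 were below 4 on every one of the 4 arrays, and Csf1r was at 7.79 and 8.45 in EA and at 8.20 and 8.61 in YF (-0.28, SE 0.26, adjusted p = 0.77). The part of such cells in the values of the interferon and antigen genes was not tested.

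Cytokine genes went both ways, with 9 of 40 higher and 9 lower (median -0.03). Higher in EA were Il11, the T-cell chemokine Ccl5 (8.99 and 9.16 against 5.24 and 4.44; 4.23, SE 0.45) and Tslp (3.03, SE 0.34). Lower were the neutrophil chemokine Cxcl5 (5.90 and 4.73 against 9.04 and 9.44; -3.92, SE 0.42) and the adhesion molecule Icam1 (-3.59, SE 0.39). Among 19 acute-phase and innate defence genes 6 were higher and 2 lower, with the iron-binding Lcn2 at 2.68 (SE 0.46), the complement proteases C1ra and C1s1 at 1.75 and 1.52, and the lipopolysaccharide receptor Tlr4 at -2.12 (SE 0.20). Without YF replicate 2 the 2 lower genes were 1.

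Genes of 2 stress responses passed more often on the higher side. Of 32 glutathione and oxidative stress genes 11 were higher and 3 lower in EA (34.4% and 9.38%; median 0.22). The glutathione transferase Gstt1 was at 10.31 and 10.15 in EA and at 7.11 and 7.58 in YF (2.89, SE 0.22, adjusted p = 0.0022), Gsta2 differed by 3.38 (SE 0.53) and the microsomal Mgst3 by 2.03 (SE 0.24). The secreted enzymes went the other way: extracellular superoxide dismutase, Sod3, was at 4.09 and 4.52 in EA and at 8.29 and 8.38 in YF (-4.03, SE 0.38), and plasma glutathione peroxidase, Gpx3, differed by -3.13 (SE 0.16). Without YF replicate 2 the 11 were 7. Of 23 genes of the unfolded protein and ATF4 response, 10 were higher and 1 lower (43.5% and 4.35%; median 0.30). They included the ATF4 targets Atf3 (6.72 and 6.35 against 4.30 and 3.67; 2.55, SE 0.45), Trib3 (1.81, SE 0.14), Atf5 (1.17, SE 0.11) and Mthfd2 (0.76, SE 0.06), the last an enzyme of one-carbon metabolism. Of the 10, 5 passed without YF replicate 1, and likewise without YF replicate 2; the 1 lower was 0 without any 1 of the 4 arrays or either EA array with hormone, and 2 without either YF array with hormone. Of 21 heat shock genes 1 was higher and 3 were lower. Hspb1, a small heat shock protein that binds actin filaments, was at 8.70 and 9.75 in EA and at 13.11 and 13.07 in YF (-3.86, SE 0.35).

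Of 18 smooth muscle contractile genes 5 were lower and 0 higher by limma (1 higher at an unadjusted p under 0.05), with a median of -0.30. Without YF replicate 2, 1 gene passed higher, and 4 were lower with any 1 of the 4 arrays left out. Cnn1, calponin, was at 5.26 and 5.79 in EA and at 10.43 and 10.35 in YF (-4.87, SE 0.27, adjusted p = 0.00092), and Myh11, smooth muscle myosin, at 2.29 and 2.29 against 7.35 and 6.90 (-4.84, SE 0.19). The actin Actg2 differed by -2.82 (SE 0.27), the myosin kinase Mylk by -2.30 (SE 0.06) and Synpo2 by -1.28 (SE 0.21). Acta2, the actin used to define myofibroblasts, was at 14.27 and 14.34 against 14.55 and 14.65 (-0.29, SE 0.07, adjusted p = 0.074). It did not pass on this probe set, but 1 of its 3 probe sets passed lower. The summed linear level of the list was 82500 to 89400 in EA and 104000 to 108000 in YF. Of 27 skeletal and cardiac muscle genes 2 passed, both higher, while 8.28% of all genes passed higher. They were the fast skeletal troponin genes Tnnt3 (7.89 and 7.47 in EA, 2.09 and 2.08 in YF) and Tnni2 (4.19, SE 0.82, limma adjusted p = 0.035). With quantile normalization 1 of the 2 passed, and Tnni2 did not pass in most of the alternative fits. From 1 to 3 passed higher when any 1 of the 4 arrays was left out.

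The mesothelial and simple-epithelial list was mixed. Krt19 (9.94 and 10.30 in EA, 4.61 and 3.77 in YF), Msln (7.93 and 8.09 against 2.29 and 2.24) and the keratin Krt7 (7.59 and 7.57 against 4.23 and 4.60; 3.16, SE 0.18) were higher, and Wt1 was lower. The remaining 18 of 22 genes had both group means below 4, the defining epithelial genes Cdh1 and Epcam and mesothelial genes Upk3b and Muc16 among them. The summed linear level of the list was 1510 to 1820 in EA and 400 to 474 in YF, of which 532 to 560 and 386 to 450 remained without Krt19. Without YF replicate 1 the 1 lower was 2. Of 22 cartilage and bone genes 7 were lower and 2 higher (median -0.13). The 7 were 3 without YF replicate 2, and the 2 were 1 without any 1 of the 4 arrays or either EA array with hormone. The cartilage collagen Col2a1 was at 8.18 and 8.48 in YF and at 3.02 and 3.26 in EA (-5.19, SE 0.17), the matrix protein Matn3 differed by -4.0 (SE 0.26) and the factor Sox6 by -3.86 (SE 0.10), with Sox5, its relative, higher by 3.16 (SE 0.15).

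Matrix genes passed in both directions. Of 33 collagens 5 were higher and 5 lower (15.2% each; median -0.03). The 3 chains of collagen VI were higher together: Col6a1 was at 14.27 and 14.19 in EA and at 13.59 and 13.65 in YF (0.61, SE 0.06), Col6a2 differed by 0.73 (SE 0.05) and Col6a3 by 0.73 (SE 0.08); the first 2 chains were named after their values were seen. Beside Col2a1, Col7a1, the anchoring fibril collagen, was lower (-2.78, SE 0.34) and so was Col11a1 (-1.33, SE 0.21). The 5 lower collagens were 3 without EA replicate 1 and 2 without YF replicate 1 or YF replicate 2. Of 49 proteoglycans and glycoproteins 12 were lower and 4 higher (median -0.12), with Thbs4, a thrombospondin of tendon, at 11.36 and 11.38 in EA and 5.97 and 6.29 in YF (5.24, SE 0.16, adjusted p = 0.00015), the laminin chain Lama2 at -3.70 (SE 0.17) and Efemp1 at -2.35 (SE 0.26). The 12 were 6 without YF replicate 1 or YF replicate 2. Of 32 matrix proteases and inhibitors 10 were lower and 4 higher (median -0.22). The collagenase Mmp13 differed by -3.73 (SE 0.58), Adamts9 by -3.01 (SE 0.13) and Adam12 by -2.74 (SE 0.22), while the gelatinase Mmp9 was higher (7.87 and 8.55 against 5.46 and 6.02; 2.47, SE 0.28). The 4 were 2 without EA replicate 2, YF replicate 1, YF replicate 2 or either EA array with hormone.

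Imprinted genes, expressed from the allele of 1 parent and many of them regulators of fetal growth, were higher at 9 of 30 and lower at 5 (30% and 16.7%; median 0.29). The higher ones included neighbours of Igf2 in the same imprinted region, the transporter Slc22a18 (9.34 and 9.46 in EA, 4.03 and 4.31 in YF; 5.23, SE 0.17) and the cell cycle inhibitor Cdkn1c (6.74 and 6.60 against 3.95 and 4.57; 2.41, SE 0.21). Dlk1 (2.56, SE 0.10) and Mirg (2.31, SE 0.41), of another imprinted cluster, were higher too. Among the lower ones were Ppp1r9a (-3.16, SE 0.12) and, named after its values were seen, Peg12 (-1.91, SE 0.28). Without EA replicate 1, YF replicate 1 or YF replicate 2 the 9 were 5, and the 5 lower ones were 3 without any 1 of the 4 arrays. As a check on the sex of the cells, 0 of 9 sex-linked genes passed by limma on the brightest probe set. Before adjustment, 1 was higher and 1 lower with a p under 0.05. In the 4 arrays alone 1 passed lower, and with probe sets of a mean below 4 left out 1 passed higher. Of 3 probe sets each, 1 of Xist passed higher and 1 of Ddx3x passed lower. These genes can compare sex only, not whether the 2 populations share an origin. Xist was at 11.20 and 10.88 in EA and at 10.14 and 10.47 in YF (0.74, SE 0.19, adjusted p = 0.084), and the Y-linked Uty, Kdm5d and Eif2s3y were below 4 on all 4 arrays.

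In the lists of replication, mitotic and sterol genes, those that passed were lower. Of all genes 6.74% passed lower, and of genes with a mean of 4 or more 10.5%. The share of mitotic genes was near the latter. Of 31 DNA replication genes 7 were lower and 0 higher in EA by limma (0 higher also at an unadjusted p under 0.05; median -0.34), among them Cdc45 (7.39 and 7.56 in EA, 8.74 and 8.26 in YF; -1.03, SE 0.21) and the licensing factor Cdc6 (-1.0, SE 0.14). Of 29 mitotic genes 3 were lower and 0 higher (2 higher at an unadjusted p under 0.05; median -0.21), and the proliferation marker Mki67 was at 12.47 and 12.32 against 12.47 and 12.30 (0.01, SE 0.08). These calls rested on single arrays: the 7 were 1 without EA replicate 1 or EA replicate 2, 0 without YF replicate 1 and 3 without YF replicate 2, and the 3 were 1, 0, 0 and 1. Without either EA array with hormone they were 3 and 1. Of 25 sterol and fatty acid synthesis genes 6 were lower and 0 higher (1 higher at an unadjusted p under 0.05; median -0.26), led by Hsd17b7 (11.31 and 11.26 against 12.17 and 12.35; -0.98, SE 0.08) and Sqle, squalene epoxidase (-0.77, SE 0.08). They were 3 without EA replicate 1 or YF replicate 2 and 2 without YF replicate 1, and 1 was higher without either YF array with hormone.

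Immediate early genes, which respond within minutes to serum or handling, were lower at 10 of 30 and higher at 6 (median -0.32). Ankrd1, a target of YAP and stretch, was at 12.72 and 12.86 in YF and at 6.54 and 6.89 in EA (-6.08, SE 0.23, adjusted p = 0.00028). Fos was at 10.57 and 11.34 in YF and at 8.39 and 8.18 in EA (-2.67, SE 0.28), the nuclear receptor gene Nr4a3 differed by -2.04 (SE 0.35) and Zfp36, which destabilises cytokine mRNA, by -1.73 (SE 0.27). Without EA replicate 1 or YF replicate 2 the 10 were 5 and without EA replicate 2 they were 6, and the 6 higher ones were 3 without EA replicate 1 or EA replicate 2.

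The same mutant contrast was measured again on the 4 arrays with hormone, which share no sample with the 4 described. There 4579 probe sets (10.2%) passed, 4.37% higher and 5.80% lower in EA, and 3020 passed in the same direction on both occasions, which is 62.3% of those without hormone and 66% of those with it. Both sets come from a fit with 1 spread per probe set over all 8 arrays. When each set of 4 arrays was fitted alone, 4194 and 2381 passed, 1349 passed in both and 1346 of these had the same direction. Of the 4847 probe sets passing without hormone, 4636 had the same sign with it. All 30 leading genes passed again in the same direction, H2-DMb2 with a difference of 10.13, Igf2 with 7.15, Tfap2b with -8.46 and Tbx4 with -7.73. In 22 of the 30 the difference was smaller with hormone (median change of size -0.30), and in 7 it was smaller by more than 1. These 7 were Nts (5.53), Ptgds (4.76), Krt19 (4.47), Il11 (4.53), Gdpd2 (4.49), Ildr2 (-5.67) and C1qtnf3 (-4.75). The change of the difference did not pass for any of the 7 (lowest limma adjusted p = 0.32, for Ildr2). The 30 were picked for their size without hormone. Smaller sizes on other arrays can follow from that choice alone, so they do not measure an effect of hormone. Of the 14 interferon-stimulated genes 9 passed again, as did 13 of the 15 Hox genes, 11 of the 12 IGF genes and all 5 smooth muscle genes.

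**Figure D5:**
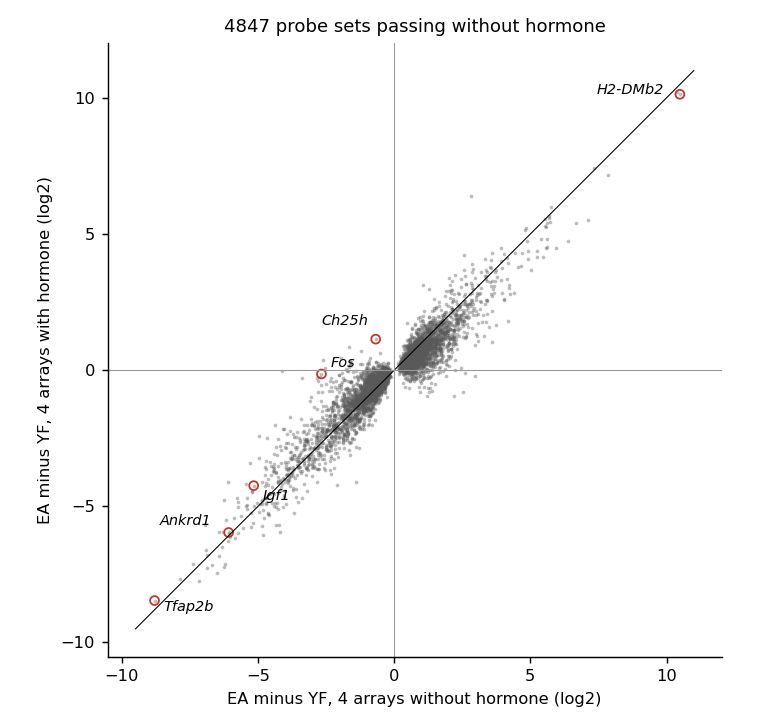
EA minus YF difference on the 4 arrays with hormone (vertical axis, log2) against that on the 4 arrays without hormone (horizontal axis, log2), for the 4847 probe sets that passed without hormone; the line marks equality. H2-DMb2, Tfap2b, Ankrd1 and Igf1 lie near the line, Fos near 0 with hormone, and Ch25h on the opposite side.

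For a few genes the values without and with hormone were unlike. Fos was at 5.73 and 6.15 in EA and 6.03 and 6.13 in YF with hormone, a difference of -0.14, and Zfp36 and Nr4a3 differed by -0.03 and -0.19. The change of the difference did not pass for Fos (adjusted p = 0.23), Zfp36 (0.34) or Nr4a3 (0.42). Over all probe sets, that change passed at 9 (0.0200%), with 4385 at an unadjusted p under 0.05. A Socs2 probe set was among the 9, with means of 2.44 in EA and 2.55 in YF without hormone and 7.96 and 2.95 with it. Its change was 5.11 (SE 0.23, limma adjusted p = 0.025). The brighter Socs2 probe set changed by 5.15 (SE 0.47) and did not pass (limma adjusted p = 0.1). Ccl20, named after its values were seen, changed by 1.44 (SE 0.05, limma adjusted p = 0.022). Passing in opposite directions occurred at 12 probe sets. One was Ch25h, cholesterol 25-hydroxylase, named after its values were seen: it was at 6.08 and 6.03 in EA and 6.72 and 6.76 in YF without hormone (-0.68, SE 0.05), and at 8.27 and 8.17 and 7.04 and 7.13 with it (1.14, SE 0.05; adjusted p of the change = 0.025). Alx1, a craniofacial factor likewise named after its values were seen, went from -0.53 to 0.63.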

How the data were processed

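RNA from 8 Affymetrix arrays was used, 2 per group, each array placed in its group by its own label. Per the labels' protocols, RNA was extracted with TRIzol and labelled with biotin. The authors deposited log2 values per probe set, and the submitters' processing notes name GCOS and RMA; their settings were not stated. No further normalization was applied: array medians were 2.85 to 2.94 and 75th percentiles 9.04 to 9.14. The number of arrays limits the precision.

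Of 45101 probe sets, 64 controls were left out. Platform annotation gave 1 gene symbol to 34945, several to 932 and none to 9160; 34741 of the first matched RefSeq (GRCm38.p6). Differences were tested with limma 3.58.1 (R 4.3.3) by lmFit and eBayes on 4 group means over 8 arrays, leaving 4 residual degrees of freedom (prior 1.26), two-sided, with Benjamini-Hochberg adjustment over 45037 probe sets and a threshold of 0.05. The code was tested on simulated data.

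Gene lists, list members and the comparison were chosen with earlier results of these data known. Named were the 15 largest passing differences each way that did not overlap and had a group mean above 4, up to 6 passing and the 3 brightest other members of each list, and Stat5a, Stat5b, Ghr, Jak2, Socs2, Cish, Bcl6 and Igf1. Alternatives were quantile normalization, centring on medians, leaving out probe sets with a mean below 4, the 4 arrays alone, a trend with robust fitting, a replicate block and leaving out each array. Promoter windows came from RefSeq and were searched on both strands over 250 bases before the start.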

Additional observations from a re-analysis of the deposited data

Results flagged for a closer look

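Bcl6, a transcriptional repressor, had a mutant difference that itself differed between the arrays without and with hormone. It was at 12.45 and 12.38 in EA and at 12.28 and 12.15 in YF without hormone, and at 10.56 and 10.63 in EA and at 12.29 and 12.19 in YF with hormone. The EA minus YF difference went from 0.20 (SE 0.07) to -1.65 (SE 0.07), a change of -1.85 (SE 0.09, limma adjusted p = 0.025, n = 2 arrays per group). The other of its 2 probe sets had group means below 4. The change of the difference passed at 0 probe sets without EA replicate 2 or YF replicate 2.

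At 2 of the 12 probe sets that passed in opposite directions without and with hormone, the change of the difference passed as well. For Ch25h, which makes 25-hydroxycholesterol, it was 1.82 (SE 0.07, limma adjusted p = 0.025), from -0.68 to 1.14. For Elf2, an ETS family factor, it was -1.04 (SE 0.05, limma adjusted p = 0.025), from 0.41 to -0.63. Both genes were named after their values were seen.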

How the results depend on the processing

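Without hormone, the number of passing probe sets stayed within 1.5 times of 4847 except when 1 of its 4 arrays was left out; over all 8 omissions of an array it was 2488 to 5170 (1182 to 2751 higher, 1267 to 2419 lower). Of the 4847, between 2239 and 2427 passed in the same direction without 1 of the 4 arrays, and 0 in the opposite one. List genes passing went from 394 to a range of 257 to 403, lowest without YF replicate 2, and 262 when YF replicate 1 was left out. With hormone, 4579 became 2381 (986 higher, 1395 lower) in its 4 arrays alone, and 2372 to 4939 (1085 to 2026 and 1287 to 2913) with an array left out, lowest without EA with hormone replicate 2. The count of 9 for the change of the difference (4 higher, 5 lower) moved most: quantile normalization gave 3 lower, leaving out probe sets with a mean below 4 gave 0 (0 and 0), a trend with robust fitting 42 (16 and 26), and omission of single arrays 0 to 201 (0 to 40 higher, 0 to 161 lower), with 201 without YF with hormone replicate 2. Replicate numbers were not used to pair the arrays in the main fit. The correlation of replicate deviations was -0.062 between EA and YF and 0.37 between EA and YF with hormone. It was -0.21 between EA without and with hormone, and -0.3 between EA without and YF with hormone. With the replicate block 4196 passed, 3890 of them among the 4847 and in the same direction, and the change of the difference passed at 0 (0 and 0). Signs reversed for Stat5b, in the low group, at 0 with quantile normalization, 0.01 with centring and -0.04 to 0.02 over omissions of an array, and for Socs2 at -0.63 to 0.21, the latter without YF replicate 1. The cause was not tested.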
